A study of Mus musculus with 2 samples.

Results

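Death receptor signaling and necroptosis were described here through 10 mouse genes, chosen by symbol from the 19059 genes in the count matrices. They are the receptors Fas, Tnfrsf1a, Tnfrsf1b and Tnfrsf10b, the adaptor Fadd, the kinases Ripk1 and Ripk3, the protease Casp8, its brake Cflar, and Mlkl, which breaks the plasma membrane. All 10 were present in the matrices. The cells came from orthotopic tumors grown from Trp53+/- and Nf1+/- mouse glioblastoma stem cells (mGSC) in C57BL/6J mice, which were female and 6 to 8 weeks old per the methods. The mice received vehicle or Xevinapant, an oral SMAC mimetic aimed at cIAP1, cIAP2 and XIAP, at 50 mg/kg daily by gavage for 7 days, and cells were taken directly afterwards from 4 tumors per group. A single mGSC line was used, so differences between tumor lines were not sampled. All comparisons asked where these genes are used in the tumor and its surroundings, and whether 7 days of Xevinapant changed them.

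Ligand binding to Fas or TRAIL-R (Tnfrsf10b) gathers FADD and caspase-8 at the receptor, while TNFR1 (Tnfrsf1a) first builds a RIPK1 complex that is kept in a survival mode by the cIAP ubiquitin ligases. When cIAPs are lost, RIPK1 can pass to FADD and caspase-8, and apoptosis follows unless cFLIP (Cflar) restrains the caspase. Where caspase-8 is not active, RIPK1 can activate RIPK3, which phosphorylates MLKL, and the cell dies by necroptosis. TNFR2 (Tnfrsf1b) has no death domain and is best known on leukocytes.

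Each barcode was assigned to a class by its marker UMIs, and a class name below stands for that gate. The markers do not tell tumor cells from normal glia, so the tumor class and its states may hold both. Of 56943 barcodes, 54574 passed the filters and 39425 entered a class, while 1696 held markers of several lineages and were set aside and 13453 met no gate. There were 36344 tumor cells, 592 microglia, 1054 macrophages, 345 monocytes, 314 neutrophils, 186 lymphocytes, 233 endothelial cells and 231 fibroblasts, besides 26 dendritic cells, 51 mural cells and 49 erythrocytes. The lymphocytes pool 109 T cells, 41 NK cells and 36 B cells. The summed level of the macrophage markers was 6032 CPM in macrophages and 18.9 CPM in tumor cells, that of the endothelial markers 7938 and 22.7 CPM, and that of the tumor markers 6493 CPM in tumor cells. CPM stands for UMIs of a gene scaled to a total of 1000000 UMIs, after summing over the cells of a class in a sample. Of the microglia, 354 carried the minimum of 3 markers, as did 300 of the macrophages and 107 of the fibroblasts.

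The 8 matrices held 4505 to 14728 barcodes and 71835789 to 300206053 UMIs. Vehicle 1 was nearly the same as vehicle 3, Xevinapant 1 as Xevinapant 2, and Xevinapant 3 as Xevinapant 4. For these 3 pairs chi-square divided by its degrees of freedom came to 0.94 to 1.95 in class makeup and 1.37 to 4.02 in tumor expression, and the other 9 pairs of a treatment reached at least 5.54 and 12.95. Each of the 3 pairs was summed and counted once, which left 3 vehicle and 2 Xevinapant samples. This departs from the stated 4 tumors per group, and whether a joined pair holds cells of 1 mouse or 2 is not known, so n = 5 below counts distinguishable samples. Pool, batch date and the RNA type named in the labels coincide with treatment, so these and the drug cannot be told apart. The pools shared 1413 whole barcodes between same-numbered matrices, and leaving these out changed no call on the 10 genes. Tumor RNA was found outside tumor cells: the summed level of 8 tumor genes in macrophages was 4.61% to 10.3% of that in tumor cells of the same sample, in microglia 7.04% to 12.3%, and in endothelial cells 5.26% to 20.9%.

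Promoter sequences are shown for 3 genes whose tumor level lay at opposite ends of the classes, Fadd at the top and Ripk3 and Tnfrsf1b at the bottom. They are the 250 bases before the gene start in RefSeq on GRCm38.p6, written 5′ to 3′ on the strand of the gene, with CG dinucleotides in capitals. Fadd lies on chromosome 7 at 144578323 to 144582441, Ripk3 on chromosome 14 at 55784995 to 55788857 and Tnfrsf1b on chromosome 4 at 145212368 to 145246870, all on the minus strand.
Fadd, chr7:144582442-144582691: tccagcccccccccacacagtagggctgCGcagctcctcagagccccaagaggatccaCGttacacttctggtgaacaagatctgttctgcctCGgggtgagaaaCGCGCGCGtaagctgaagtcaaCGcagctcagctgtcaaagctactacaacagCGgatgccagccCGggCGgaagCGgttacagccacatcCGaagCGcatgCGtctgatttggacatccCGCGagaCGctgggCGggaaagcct
Ripk3, chr14:55788858-55789107: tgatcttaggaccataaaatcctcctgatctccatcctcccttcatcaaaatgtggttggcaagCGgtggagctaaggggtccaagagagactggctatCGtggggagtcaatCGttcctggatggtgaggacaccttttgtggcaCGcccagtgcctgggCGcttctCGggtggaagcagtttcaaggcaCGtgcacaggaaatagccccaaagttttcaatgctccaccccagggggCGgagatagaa
Tnfrsf1b, chr4:145246871-145247120: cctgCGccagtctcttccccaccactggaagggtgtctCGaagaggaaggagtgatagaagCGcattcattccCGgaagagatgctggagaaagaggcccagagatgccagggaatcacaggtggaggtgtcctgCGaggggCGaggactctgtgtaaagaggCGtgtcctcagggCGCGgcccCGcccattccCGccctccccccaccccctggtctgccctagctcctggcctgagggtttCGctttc
The Fadd window held 19 CG dinucleotides, that of Ripk3 8 and that of Tnfrsf1b 12, beside a median of 6 and quartiles of 2 and 16 over 32817 promoter windows. Of the other genes with their lowest mean level in tumor cells, Casp8 held 5, Cflar 7 and Fas 11, and the windows of Ripk1 held 19 and 32. Searched on both strands over the 10 windows of 9 genes, the core of the interferon-stimulated response element was present in the Tnfrsf1b window and in no other, and it is present in 2.97% of all windows. The AP-1 motif TGANTCA was found in the Fas window alone (6.75% of all windows), the GC box GGGCGG in 6 of 10 windows (32.7%) and the kappaB motif in 0 of 10 (1.41%). These matches describe letters in the windows only.

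Outside the tumor cells most of the 10 genes were higher than in them, with Fadd as the exception in each of the 5 classes tested. In a test that kept the sample as a block (edgeR quasi-likelihood, Benjamini-Hochberg over all genes), 8 of 10 members were higher and 1 lower in microglia, where 64.0% of 11495 genes were called and 31.2% were higher. Counts were 8 and 1 in macrophages (68.8% called, 34.6% higher), 7 and 1 in lymphocytes (49.7%, 25%), 8 and 1 in endothelial cells (35.2%, 19.9%), and 9 and 1 in fibroblasts (55.2%, 31.2%). The median member difference was 1.99 log2 units in microglia, 2.47 in macrophages, 2.57 in lymphocytes, 1.79 in endothelial cells and 3.33 in fibroblasts, and the median over all genes tested lay between −0.10 and 0.03. Without the TMM scaling the median of all genes moved by −0.84 in fibroblasts, −0.52 in macrophages, −0.45 in microglia, −0.14 in endothelial cells and −0.11 in lymphocytes, and no member that was called changed direction.

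**Figure D1:**
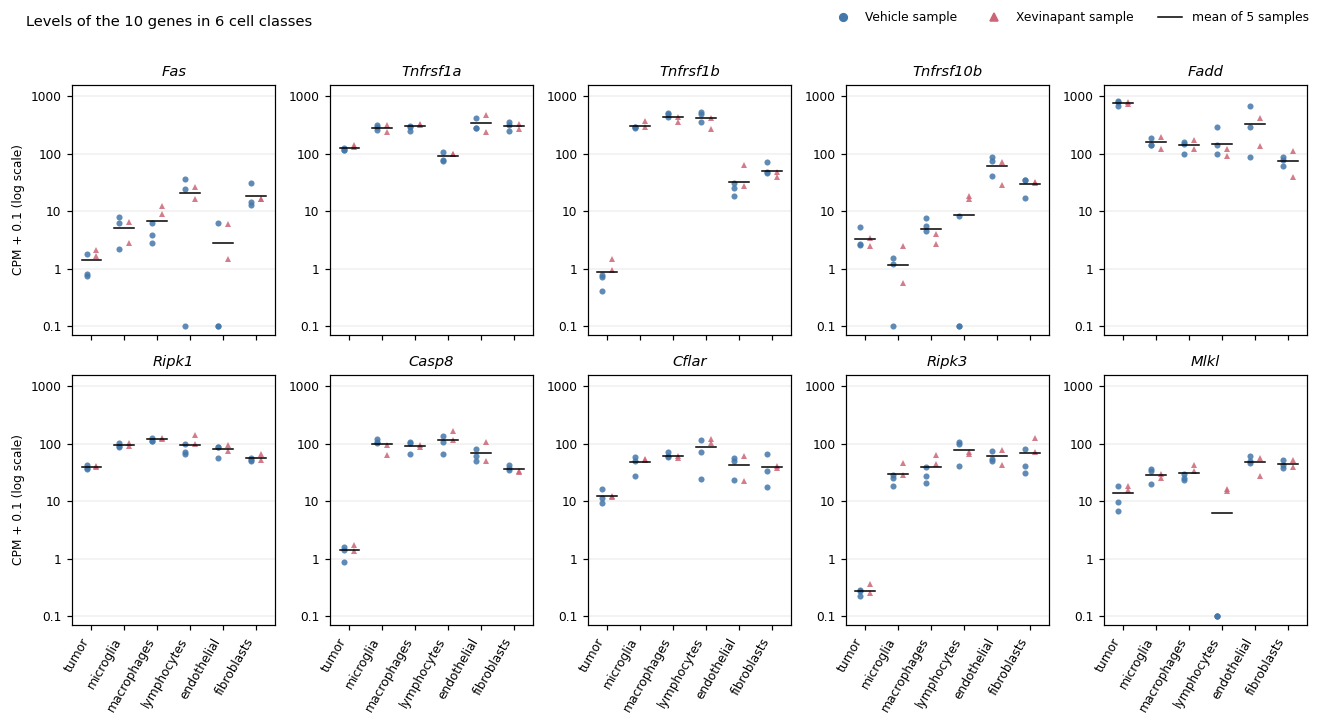
CPM of the 10 genes (log axis, 0.1 added) in 6 classes, with a point for each of the 3 vehicle and 2 Xevinapant samples and a line at the mean of the 5. Casp8, Ripk3 and Tnfrsf1b lie below 2 CPM in tumor cells and above 10 CPM in the other 5 classes, Fadd is highest there, and the vehicle and Xevinapant points mostly overlap.

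Of the receptors, Tnfrsf1a, which carries the TNF death signal, was measured in every class. In tumor cells it stood at 126, 118 and 118 CPM in the vehicle samples and 140 and 130 CPM in the Xevinapant samples. In macrophages it was 251, 308, 292, 332 and 313 CPM in the same order. All 5 macrophage values lay above all 5 tumor values, a log2 difference of 1.77 ± 0.16 (SE; adjusted p = 6.12e-11, edgeR). Microglia (287 ± 32.8 CPM, SD, n = 5), fibroblasts (306 ± 43.0) and endothelial cells (342 ± 105) overlapped with macrophages, so these 4 could not be ordered. Lymphocytes were lowest at 91.8 ± 14.6 CPM and did not overlap with tumor cells, yet the fitted difference of −0.37 ± 0.22 was not called (adjusted p = 0.164, edgeR), and it was called when 1 marker more was required (−0.50, adjusted p = 0.0318).

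Tnfrsf1b, the TNF receptor of leukocytes, separated the immune classes from all others. Macrophages held 438, 505 and 484 CPM under vehicle and 365 and 431 CPM under Xevinapant, and tumor cells 0.608, 0.317 and 0.696 against 1.39 and 0.838 CPM. The log2 difference between these classes was 9.75 ± 0.33 (adjusted p = 7.67e-21, edgeR). Monocytes (628 CPM as the mean of 5 samples) and neutrophils (748 CPM) were not tested against tumor cells, since vehicle 2 had 7 cells of each and vehicle 4 had 8 neutrophils, under the minimum of 10. Fibroblasts (50.4 ± 12.2 CPM) and endothelial cells (32.9 ± 17.6) overlapped with each other and lay below microglia (305 ± 36.1) in every sample. The tumor level was 0.0628% to 0.381% of that in macrophages of the same sample. The complement genes C1qa, C1qb and C1qc, which tumor cells are not known to make and which were chosen after their values were seen, stood at 0.113% to 0.244% by the same measure. In endothelial cells and fibroblasts C1q was at most 0.942% and 0.701% of that in macrophages, so it does not follow RNA from these classes. In neutrophils, lymphocytes and monocytes, which also held Tnfrsf1b, C1q was at most 3.34%, 19.2% and 46.2%, so it follows their RNA in part at most. The tumor gate allowed at most 1 pan-immune gene, which limits immune RNA in tumor cells. The Tnfrsf1b share was below the C1q share in 4 of 5 samples, at most 0.195% against 0.216%, and above it in the joined sample of Xevinapant 1 and 2 (0.381% against 0.244%).

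Fas, the receptor of Fas ligand, was low in tumor cells at 0.699, 0.644 and 1.71 CPM under vehicle and 1.55 and 2.01 CPM under Xevinapant. Fibroblasts held 12.7, 30.6, 14.3, 16.3 and 16.2 CPM. Every fibroblast value was above every tumor value, a log2 difference of 4.50 ± 0.44 (adjusted p = 6.24e-10, edgeR). Lymphocytes ranged from 0 to 35.8 CPM with a difference of 4.05 ± 0.68 (adjusted p = 1.58e-05, edgeR), which rests on 0, 1, 3, 2 and 7 UMIs. The 35.8 CPM of vehicle 2 is 1 UMI, and the 0 of vehicle 1 and 3 allows up to 58.9 CPM (3 counts). Endothelial cells ranged from 0 to 6.22 CPM without a call (0.79 ± 0.86, adjusted p = 0.534). In neutrophils, Fas was 23.7, 0 and 116 CPM under vehicle and 81.3 and 92.7 CPM under Xevinapant, from 8136 to 319793 UMIs per sample. The vehicle values rest on 1, 0 and 1 UMIs, and the 0, in the 7 neutrophils of vehicle 2, allows up to 369 CPM (3 counts).

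Tnfrsf10b, the only TRAIL death receptor of the mouse, had the highest mean of the 6 classes in endothelial cells. Their measured values overlapped with those of fibroblasts alone. The lymphocyte zeros of vehicle 1 and 3 and of vehicle 2 allow up to 58.9 and 107 CPM (3 counts), however, which reaches the endothelial values. Endothelial cells held 73.9, 41.3 and 87.1 CPM under vehicle and 72.4 and 28.7 CPM under Xevinapant, against 2.62, 2.50, 5.35, 2.37 and 3.31 CPM in tumor cells. Endothelial and tumor values did not overlap, and the log2 difference was 4.30 ± 0.36 (adjusted p = 5.30e-11, edgeR). Fibroblasts were also higher (30.2 ± 7.75 CPM, 4.13 ± 0.35, adjusted p = 4.00e-11). Microglia had 0 to 2.35 CPM, the lowest of the 6 classes, without a call (−1.0 ± 0.57, adjusted p = 0.125), although the call was made without the joined sample of Xevinapant 1 and 2 (−1.68, adjusted p = 0.0459), with 1 marker more (−1.96) and without TMM (−1.44). In macrophages it was 0.88 ± 0.41 (adjusted p = 0.0589), and it passed without vehicle 4 (1.0, adjusted p = 0.0472) or without Xevinapant 1 and 2 (1.08, adjusted p = 0.0474). The call in lymphocytes (2.17 ± 0.72, adjusted p = 0.0131), which rests on 0, 0, 1, 2 and 5 UMIs, was lost without Xevinapant 3 and 4 (1.52, adjusted p = 0.263).

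Fadd, the adaptor that joins death receptors to caspase-8, was the only member highest in tumor cells. There it stood at 675, 784 and 817 CPM under vehicle and 801 and 729 CPM under Xevinapant. Macrophages held 147, 158 and 98.4 CPM under vehicle and 123 and 177 CPM under Xevinapant, all below every tumor value, and the log2 difference was −1.94 ± 0.28 (adjusted p = 7.65e-07, edgeR), or 3.84-fold lower. Fibroblasts were 5.85-fold lower (−2.55 ± 0.31, adjusted p = 4.65e-08), lymphocytes 4.73-fold and microglia 3.67-fold. Endothelial cells were 2.32-fold lower (−1.21 ± 0.29, adjusted p = 0.0015) but varied from 87.1 to 693 CPM and overlapped with tumor cells.

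The tumor RNA measured in these classes was set beside their Fadd. The share of tumor RNA in macrophages, multiplied by the tumor level of Fadd, equals 44.8% of the Fadd level measured there, and in microglia 47.3%. In fibroblasts it equals 129%, or 77.0% when Pdgfra, which fibroblasts also express, is left out of the 8 tumor genes. Without Pdgfra it equals 38.6% in lymphocytes and 32.3% in endothelial cells. For the other members the same product was at most 9.24% of the level in macrophages, microglia, endothelial cells and fibroblasts, apart from Tnfrsf10b in microglia (30.6%). This bound leaves out lymphocytes, where the share of tumor RNA was 2.415% to 12.3% and the product for the other members is not given. The gate itself limits this share, since barcodes of another class with a set share of UMIs from tumor markers were set aside. Most of the 8 tumor genes are among these markers. The part of tumor RNA in these levels was not tested beyond this product.

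**Figure D2:**
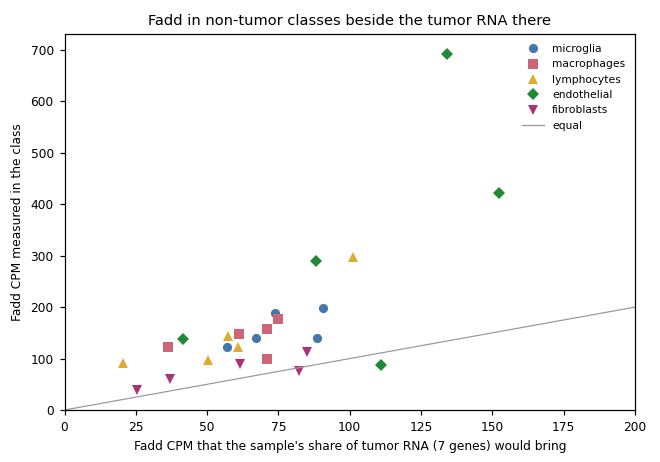
Fadd CPM measured in 5 classes outside the tumor (vertical axis) against the Fadd CPM that the tumor RNA in the same sample would bring (horizontal axis, from 7 tumor genes without Pdgfra), 5 samples per class. The gray line marks equality, and the fibroblasts lie nearest to it while most endothelial samples lie well above.

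Ripk1, the kinase at the fork between survival and death, was higher in all 5 classes than in tumor cells, by 1.15 to 2.11 log2 units. Tumor cells held 38.1, 35.7, 43.1, 41.4 and 39.9 CPM and macrophages 111, 110, 126, 128 and 121 CPM. The ranges did not overlap, with a log2 difference of 2.11 ± 0.12 (adjusted p = 3.76e-15, edgeR). Lymphocytes, microglia and endothelial cells had means between these, at 95.2 ± 29.3, 94.1 ± 7.14 and 80.0 ± 15.97 CPM, and overlapped with one another, and the lymphocytes, at 66.0 to 140 CPM, overlapped with macrophages as well. Fibroblasts had the smallest CPM of the 5 classes (55.6 ± 6.14), still without overlap with tumor cells (1.33 ± 0.14, adjusted p = 2.77e-09). The smallest fitted difference was that of endothelial cells (1.15 ± 0.15, adjusted p = 3.25e-07, edgeR). The order of these classes thus differs between CPM and the fit.

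Casp8, the protease that starts receptor apoptosis and holds necroptosis in check, was low in tumor cells. They held 1.32, 1.52 and 0.768 CPM under vehicle and 1.66 and 1.26 CPM under Xevinapant, which is 835 UMIs in all tumor cells together. Macrophages held 103, 67.5, 107, 96.3 and 87.7 CPM. The log2 difference was 6.68 ± 0.22, or 103-fold (adjusted p = 5.78e-21, edgeR), and it lay between 5.61 in fibroblasts and 6.68 in macrophages over the 5 classes. The tumor level was 0.720% to 2.26% of that in macrophages of the same sample, above the C1q share in all 5 samples. Whether this level came from tumor cells or from RNA of other classes was not tested. Lymphocytes, microglia, macrophages and endothelial cells overlapped in Casp8, and fibroblasts (36.4 ± 4.33 CPM) lay below them without overlap.

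Cflar, which encodes cFLIP, neighbors Casp8 on chromosome 1 (58711311 to 58758884, with Casp8 at 58795233 to 58847503). In mean CPM over the 6 classes both genes were highest in lymphocytes and lowest in tumor cells. For both, lymphocytes overlapped with the next class, and the fitted Casp8 difference was largest in macrophages (6.68). Tumor cells held 11.5, 9.14, 16.4, 11.9 and 12.5 CPM, macrophages 70.6, 57.8, 62.4, 61.9 and 55.5 CPM. All macrophage values exceeded all tumor values (2.84 ± 0.24, adjusted p = 2.46e-11, edgeR). The difference was 1.73 ± 0.33 in endothelial cells and 2.96 ± 0.37 in lymphocytes, where Casp8 differed by 5.86 and 6.63. Neutrophils, untested, held 138 and 165 CPM of Cflar in the Xevinapant samples. The vehicle samples held 166, 0 and 116 CPM from 7, 0 and 1 UMIs, of which the 0 allows up to 369 CPM.

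Ripk3, the kinase that defines necroptosis, was also low in tumor cells. In 36344 tumor cells there were 120 UMIs, giving 0.127, 0.174 and 0.183 CPM under vehicle and 0.260 and 0.153 CPM under Xevinapant. Endothelial cells held 49.2, 55.0 and 74.7 CPM under vehicle and 78.4 and 42.8 CPM under Xevinapant, and fibroblasts 40.8, 30.6, 81.3, 124 and 71.5 CPM. Neither class came near the tumor range, with log2 differences of 8.38 ± 0.29 (adjusted p = 1.77e-19, edgeR) and 9.42 ± 0.26 (adjusted p = 1.13e-21). Macrophages (39.0 ± 16.6 CPM) and microglia (29.3 ± 10.4 CPM) were lower than lymphocytes (76.6 ± 26.5 CPM) on average, but neighbors in this order overlapped. Mural cells had 126, 76.8, 211, 83.6 and 67.4 CPM from 5 to 16 cells per sample and were not tested. The tumor level was 0.320% to 0.878% of that in macrophages, above the C1q share in each sample.

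Mlkl, the pore-forming end of the pathway, was measured in tumor cells of every sample. Tumor cells held 18.6, 6.75 and 9.44 CPM under vehicle and 15.5 and 18.1 CPM under Xevinapant. Endothelial cells held 49.2, 45.9, 62.2, 57.3 and 27.3 CPM, above every tumor value, with a log2 difference of 1.84 ± 0.30 (adjusted p = 1.35e-05, edgeR). Fibroblasts (44.9 ± 6.80 CPM), macrophages (30.7 ± 7.38) and microglia (28.9 ± 6.67) were also higher, by 2.54, 1.74 and 1.56 log2 units. Lymphocytes were listed at 0 in all 3 vehicle samples and at 16.4 and 14.9 CPM in the Xevinapant samples, which rest on 2 and 4 UMIs. The vehicle zeros allow up to 24.7 to 107 CPM (3 counts), for counting error alone, and the class was not called against tumor cells (adjusted p = 0.710, edgeR).

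Detection per cell was compared at equal depth. Each cell was thinned to 2000 UMIs and shallower cells were left out, 2218 of 36344 tumor cells and 136 of 1054 macrophages, since median depth was 14480 UMIs in tumor cells and 6230 in macrophages. A UMI of Ripk3 was then expected in 0.0445% ± 0.0128 of tumor cells (SD, n = 5) and in 7.29% of macrophages, 15.7% of endothelial cells and 9.98% of fibroblasts. For Casp8 the shares were 0.279% in tumor cells and 17.9% in macrophages, for Fadd 70.4% and 18.7%, and for Tnfrsf1b 0.198% and 56.0%. Without thinning, 0.317% of tumor cells had a UMI of Ripk3, 2.27% of Casp8, 18.8% of Mlkl, 42.7% of Ripk1 and 93.2% of Fadd.

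**Figure D3:**
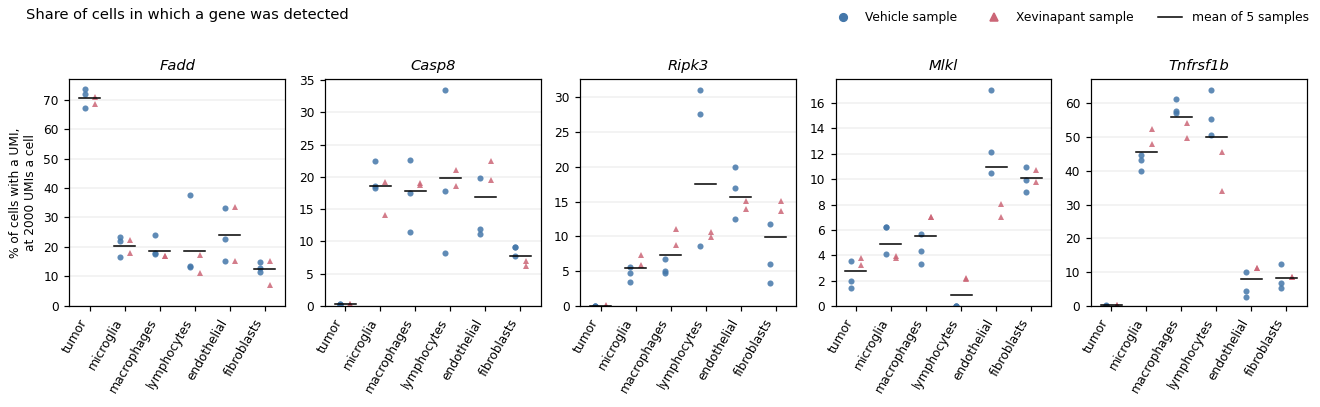
Share of cells (percent, at 2000 UMIs per cell) with a UMI of Fadd, Casp8, Ripk3, Mlkl or Tnfrsf1b in 6 classes, a point per sample and a line at the mean of 5 samples. Tumor cells reach 67.2% to 73.6% for Fadd and stay at or below 0.364% for Casp8, Ripk3 and Tnfrsf1b, and the wide lymphocyte scatter comes with 100 cells left after thinning.

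Cells that held the whole necroptosis chain were counted without thinning. UMIs of Ripk1, Ripk3 and Mlkl occurred together in 17 of 36344 tumor cells (0.0468%), 80 of 1054 macrophages (7.59%), 39 of 592 microglia (6.59%), 20 of 233 endothelial cells (8.58%) and 47 of 231 fibroblasts (20.3%). These counts are not at equal depth, with a median of 13765 UMIs in fibroblasts, 9192 in microglia and 3510 in endothelial cells, so they do not rank the classes. In tumor cells Ripk1 and Mlkl were found together in 4084 cells and Ripk1 and Ripk3 in 61. After thinning, pairs co-occurred about as often as the product of their shares in macrophages, 2.17% against 2.02% for Ripk1 with Ripk3 and 0.615% against 0.593% for Ripk3 with Mlkl. In endothelial cells Ripk3 with Mlkl stood at 2.73% against a product of 1.49%, a description over 173 cells. At this equal depth fibroblasts were below endothelial cells, at 1.39% for Ripk3 with Mlkl. Ripk1 with Ripk3 stood at 2.88% in endothelial cells and 1.28% in fibroblasts.

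Across 9 classes and states, the genes whose mean log2(CPM + 1) was most like that of a member were named by Pearson r as a description, since the points share libraries and depth. For Ripk3 these were Ly6a (0.996), Mpg and Gstt2, for Casp8 Fxyd5 (0.997), Trim25 and Icam1, and for Cflar Parp10 (0.995), Capn1 and Def6. Tnfrsf1b was followed by Trpv2 (0.994), Phyh and Oas3, Fadd by Mthfd1 (0.994), Tmem209 and Barx1, and Tnfrsf10b by Cavin3 (0.946), Rgs5 and Lrrc32. Ripk1 was followed by Rap1b (0.987), Gch1 and Osgin1, Mlkl by Pdia6 (0.985), Plod1 and Emp1, Fas by Tbc1d2b (0.975), Arid5b and Acbd4, and Tnfrsf1a by Trim47 (0.974), Il13ra1 and Myof. Among the members themselves, Casp8 and Cflar were most alike (0.973), and Fadd had no positive partner (highest r −0.405).

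Of 41 further genes listed for the pathway, 35 could be tested against tumor cells. In macrophages 26 were higher and 4 lower, beside 68.8% of all genes called and 34.6% higher, and in microglia 24 and 4, beside 64.0% and 31.2%. In lymphocytes 23 were higher and 2 lower (49.7% and 25%). In fibroblasts 13 were higher and 3 lower (55.2% and 31.2%), and in endothelial cells 12 and 1 (35.2% and 19.9%), so the share called was below that of all genes in fibroblasts and near it in endothelial cells. The ligand Tnf was higher in macrophages by 8.92 log2 units, in microglia by 8.47 and in lymphocytes by 8.80, Fasl in lymphocytes by 7.40, and the TRAIL gene Tnfsf10 in lymphocytes by 7.87, endothelial cells by 6.27 and macrophages by 5.11. Zbp1, the nucleic acid sensor that recruits Ripk3, was higher in all 5 classes, by 3.33 to 5.02. Tnfrsf23, a decoy receptor for TRAIL, was higher in fibroblasts (6.09) and endothelial cells (5.93), and the pyroptosis effector Gsdmd was higher in all 5 classes (2.23 to 4.28). Of the drug targets, Birc3 was higher in all 5 classes (1.02 to 3.74), while Birc2 was lower in macrophages (−0.70) and microglia (−0.47) and higher in lymphocytes (1.03). Xiap was higher in macrophages (0.56, adjusted p = 0.0399, edgeR) and was not called in the other 4 classes (−0.18 to 0.59).

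Within the tumor, 23989 cells were gated as OPC-like, 2981 as AC-like, 4173 as MES-like and 489 as NPC-like, by markers of oligodendrocyte precursors, astrocytes, hypoxic mesenchymal cells and neuronal progenitors. Fas was highest in the AC-like state. It stood at 2.54, 3.37 and 7.04 CPM under vehicle and 5.47 and 7.89 CPM under Xevinapant in AC-like cells, against 0.308, 0.335, 0.794, 0.521 and 0.821 CPM in OPC-like cells. The ranges did not overlap, and the difference was 9.75-fold (log2 3.29 ± 0.17, adjusted p = 2.39e-11, edgeR). Normal astrocytes in the AC-like gate were not told apart from tumor cells. In MES-like cells Fas was 2.43-fold higher (1.28 ± 0.18, adjusted p = 1.42e-05), with 0.793 to 1.99 CPM. The C1q level in AC-like cells was 0.176% to 0.310% of that in macrophages, against 0.104% to 0.248% in OPC-like cells.

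Of the 9 members tested between states, 3 were higher and 1 lower in AC-like cells, where 65.7% of 12799 genes were called. Beside Fas these were Tnfrsf1a (0.67 ± 0.06, 153 to 211 CPM against 114 to 130 CPM) and Cflar (0.46 ± 0.11), and Fadd was lower (−0.17 ± 0.06, adjusted p = 0.02, edgeR). The Fadd call was lost without vehicle 1 and 3 (adjusted p = 0.071), without vehicle 4 (0.0628), without Xevinapant 1 and 2 (0.0746) and without the filter on low counts (0.0806). In MES-like cells 3 were higher and 1 lower (52.7% of genes called), Fadd by −0.42 ± 0.06, Ripk1 by 0.18 ± 0.06 and Tnfrsf1a by 0.17 ± 0.06 beside Fas. The calls of Ripk1 and Tnfrsf1a were both lost without vehicle 2 (adjusted p = 0.0568 and 0.0611) and without TMM (0.0747 and 0.0683), Ripk1 also without Xevinapant 1 and 2 (0.102), and Tnfrsf1a also without vehicle 1 and 3 (0.0636) or Xevinapant 3 and 4 (0.0833).

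In NPC-like cells the receptors Tnfrsf1a and Tnfrsf10b, Fadd and Mlkl were lower. The gate of this state is a loose one. Close to its threshold, on either side, lay 254 tumor cells, beside 489 cells in the state, and its marker Stmn2 was at 0 there. None of the 9 members was higher and 4 were lower (35.4% of genes called), while Fas (0.37, adjusted p = 0.594, edgeR) and Tnfrsf1b (−0.10, adjusted p = 0.903) were not called. Tnfrsf10b was 0, 1.70 and 0.524 CPM under vehicle and 0 and 1.42 CPM under Xevinapant, against 2.07 to 5.24 CPM in OPC-like cells, and the values did not overlap (−1.91 ± 0.42, adjusted p = 0.00202, edgeR). These rest on 0, 3, 1, 0 and 6 UMIs, and the 0 of Xevinapant 1 and 2, from 23 cells, allows up to 6.66 CPM (3 counts), above the OPC-like range. Tnfrsf1a was 57.7 to 84.6 CPM (−0.60 ± 0.07, adjusted p = 5.57e-06) and Fadd 488 to 616 CPM against 719 to 878 CPM (−0.54 ± 0.06, adjusted p = 3.65e-06). Mlkl was 5.72, 3.4, 7.34, 8.87 and 15.7 CPM against 18.3, 7.22, 9.41, 15.0 and 17.9 CPM, lower in every sample but with overlapping ranges (−0.74 ± 0.19, adjusted p = 0.00644), and it lost its call without vehicle 1 and 3 (−0.43, adjusted p = 0.0853). Of 36 pathway genes tested, 16 were higher and 4 lower in AC-like cells, 10 and 7 in MES-like cells and 5 and 8 in NPC-like cells, shares near or below the 65.7%, 52.7% and 35.4% of all genes called. Single genes among them are Tnfrsf21, a death receptor of neural cells, higher in AC-like cells (1.30), Tnfaip3, the A20 gene that answers NF-kB, higher in MES-like cells (1.35), and Ngfr, the p75 receptor, higher in NPC-like cells (3.38).

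**Figure D4:**
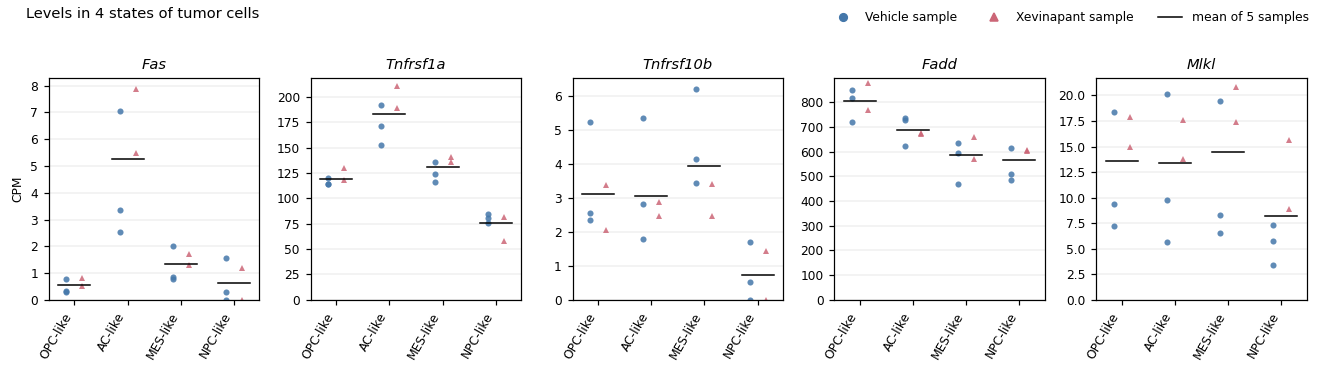
CPM (linear axes from 0) of Fas, Tnfrsf1a, Tnfrsf10b, Fadd and Mlkl in the 4 tumor states, a point per sample and a line at the mean of 5 samples. Fas and Tnfrsf1a are highest in AC-like cells, Tnfrsf10b and Tnfrsf1a lowest in NPC-like cells, and Mlkl spreads widely between samples in every state.

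No member was called between Xevinapant and vehicle. Over 10 classes and states, 81 of 100 tests passed the filter on low counts, 0 were called, and 3 had an unadjusted p under 0.05, with a lowest adjusted p of 0.449 (edgeR). Over all genes 7.64% of tests had an unadjusted p under 0.05, from 1.32% to 13.5% per class. DESeq2 gave 0 calls and 1 at an unadjusted p under 0.05. Over all genes the call rate was 0% in 9 of the 10 and 0.190% in macrophages (19 of 10012 genes), and without the filter on low counts 0 to 455 genes were called and by DESeq2 0 to 286, with 0 members among them. In 16 of 81 pairs of member and class (19.8%), 12 upward and 4 downward, the groups did not overlap, beside 24.3% of 102381 tests over all genes with a unique symbol. The 4 downward pairs were Tnfrsf10b in MES-like cells, Casp8 in microglia and in fibroblasts, and Tnfrsf1b in macrophages.

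Of the members past the filter, Ripk3 in macrophages had the lowest adjusted p. It stood at 39.7, 27.0 and 20.8 CPM under vehicle and 63.6 and 43.8 CPM under Xevinapant. Both Xevinapant samples were above all vehicle samples, with a log2 change of 0.82 ± 0.30 (adjusted p = 0.449, edgeR). The change was 0.44 without Xevinapant 1 and 2 and 1.18 without vehicle 1 and 3. The share of macrophages with a Ripk3 UMI at 2000 UMIs was 5.51% ± 1.1 under vehicle and 9.96% ± 1.65 under Xevinapant, for which the exact two-sided permutation p of 0.1 is the smallest that 3 against 2 samples allow. Of 90 such tests of shares 8 reached it, 6 of them upward, and the lowest adjusted p was 0.711. These tests were run for the members only, so no share over all genes stands beside the count, and it is not read as an excess. Tumor RNA in macrophages ranged from 8.60% to 9.19% under vehicle and from 4.61% to 10.3% under Xevinapant.

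The filter left 19 pairs of member and class untested, Fas in 6 of them. Fas in macrophages, 1 of the 6, was 6.17, 3.86 and 2.77 CPM under vehicle and 8.76 and 12.2 CPM under Xevinapant, from 7, 2, 2, 41 and 28 UMIs. The groups did not overlap, and without the filter the log2 change was 1.15 ± 0.60 (adjusted p = 0.586, edgeR). The share of macrophages with a Fas UMI was 3.2% ± 1.28 against 8.21% ± 1.51 without thinning, at the smallest p of 0.1 by the exact permutation test. At 2000 UMIs per cell it was 1.21% ± 0.78 against 2.49% ± 0.58, with an exact permutation p of 0.2. None of the 19 was called without the filter, and the adjusted p for Fas in macrophages was the lowest among them. Ripk3 in macrophages had an adjusted p of 0.0654 (0.83, edgeR) in that fit.

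In fibroblasts Ripk3 changed by 0.89 ± 0.39 (40.8, 30.6 and 81.3 against 124 and 71.5 CPM, overlapping; adjusted p = 0.996, edgeR), and by 0.38 without Xevinapant 1 and 2. Mlkl in NPC-like cells was 5.72, 3.4 and 7.34 against 8.87 and 15.7 CPM (1.25 ± 0.49, adjusted p = 0.902, edgeR), and 0.68 without Xevinapant 3 and 4. In tumor cells as a whole Mlkl changed by 0.50 with overlapping groups (adjusted p = 0.632, edgeR), since the joined sample of vehicle 1 and 3 at 18.6 CPM was the highest of all, and without it the value was 1.0 (adjusted p = 0.399). Interferon response genes, which were summed beside it, ranged from 133 to 599 CPM in the vehicle samples and from 449 to 548 CPM in the Xevinapant samples of tumor cells, and their part in the Mlkl spread was not tested.

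Among the receptors in tumor cells, Tnfrsf1a did not overlap between groups (0.12 log2 units), nor did Tnfrsf1b (0.99 ± 0.44, adjusted p = 0.479, edgeR). Both were higher under Xevinapant, while Tnfrsf1b in macrophages was lower, also without overlap. In tumor cells Tnfrsf1b was set beside C1q, each as a share of the macrophage level. C1q does not stand for RNA of every class that holds Tnfrsf1b. The Tnfrsf1b share lay below the C1q share in 4 of the 5 samples. The C1q share itself was 0.113% to 0.167% of macrophages under vehicle and 0.216% to 0.244% under Xevinapant. The part of RNA from other classes in the difference was not tested. Summed dissociation stress genes in tumor cells were 423 to 498 CPM under vehicle and 987 to 1179 CPM under Xevinapant, and hypoxia genes 509 to 638 and 722 to 1229 CPM. In the same cells the estimate was −0.03 ± 0.15 for Fadd, 0.02 ± 0.13 for Ripk1 and −0.06 ± 0.27 for Cflar, with overlapping groups.

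**Figure D5:**
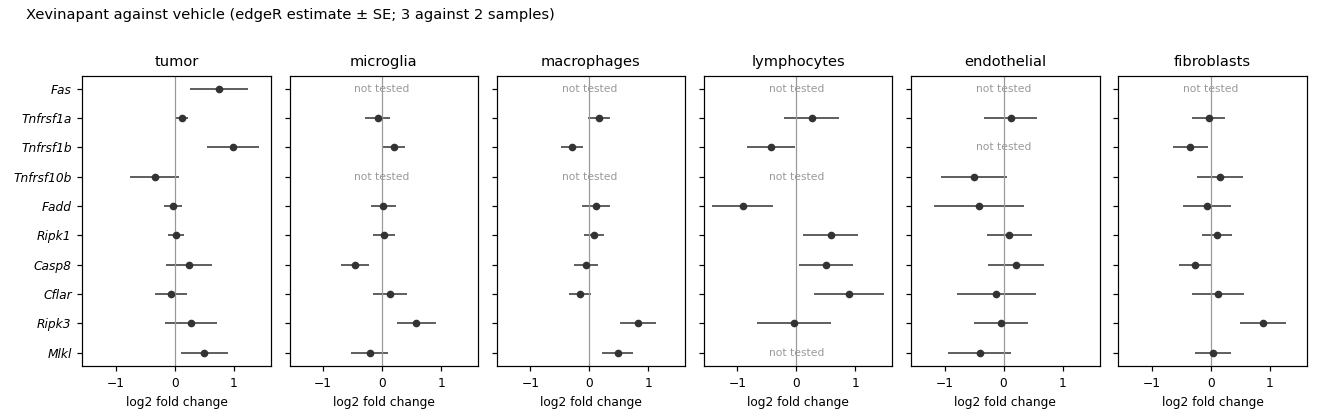
log2 fold change of each member between Xevinapant and vehicle (horizontal axis, edgeR estimate with SE bars, 2 against 3 samples) in 6 classes. Pairs left out by the filter on low counts, Fas in macrophages among them, are marked as not tested. No estimate passed the adjusted threshold, and Ripk3 at 0.82 is farthest from 0 of the 8 members tested in macrophages.

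Whether treatment acted differently on a member in a class than in tumor cells, or in a state than in OPC-like cells, was tested as an interaction. Of 77 tests 0 passed and 6 had an unadjusted p under 0.05, with a lowest adjusted p of 0.298 (edgeR). Over all genes 5.01% of the 95872 tests had an unadjusted p under 0.05, and calls were made for 0.00870% of genes in endothelial cells, 0.00870% in macrophages, 0.0781% in NPC-like cells and 0% in the other 5 fits. For the share of cells with a UMI, 0 of the tests over joined samples could reach p under 0.05. In the direct comparison of Xevinapant with vehicle, 0 of 305 tests on pathway genes passed, and the lowest adjusted p was 0.187 for Ikbkg in macrophages (0.82 ± 0.19, edgeR). Monocytes and neutrophils were compared without vehicle 2, leaving 2 samples per group, and 0 of 8 and 0 of 4 members tested were called, beside 0 of 8247 and 0 of 2517 genes. The neutrophil fit still holds vehicle 4 with 8 cells, below the minimum of 10 cells used elsewhere.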

How the data were processed

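The authors deposited UMI counts per gene and barcode, unnormalized, in 8 matrices. Cells were profiled with a 10x Genomics probe kit for fixed cells, reads were mapped to mm10 and counted with Cell Ranger (the labels name v3.0, per the file headers a later version), and Seurat filters were not applied to the files. The names of the Xevinapant matrices say Vehicle, so groups were taken from the sample labels. Here a barcode was kept if it had 200 genes or more, no more than 10% of UMIs from mitochondria, and log10 genes over log10 UMIs of 0.8 or more. A class needed 3 of its markers, and immune classes also 2 pan-immune genes. Tumor cells needed 4 tumor markers, a set share of UMIs from them, and at most 1 pan-immune gene. Markers absent from the matrices, or at 20 CPM or more in a first set of tumor barcodes, were dropped, which left 5 for microglia and 4 for fibroblasts. Marker UMIs of several lineages, or of a class together with the set share of tumor markers, counted as a doublet. Thresholds of the gates were set after marker levels were seen. No doublet caller was run. States were compared with OPC-like cells, since these make up most tumor cells. Counts were summed per sample and class and tested with edgeR 4.0.16 (TMM, filter on low counts, quasi-likelihood test, Benjamini-Hochberg at 0.05) in R 4.3.3, in classes with at least 10 cells in every sample, with the sample as a block between classes. Shares of cells with a UMI were expected values at 2000 UMIs per cell, compared by exact permutation tests in scipy 1.17.1. Figures used matplotlib 3.10.9 and tables pandas 2.3.3 and numpy 2.4.6. Scripts were tested on simulated data. All 10 members were named in every class, pathway genes by their calls, and likeness by the 3 genes with the highest r among 12441 with a mean of at least 10 CPM in a class. Members and lists were chosen with earlier results of these data known. Nothing says that the samples are separate litters, so p-values measure the spread between these samples. Alternatives were DESeq2 1.42.0 and its size factors, no TMM, no filter, thinned totals, other gates, depth and mitochondrial limits, mixed droplets kept, each matrix as 1 mouse with and without a block on the matrix number, and each sample left out. Leaving out barcodes held by both pools, and fitting monocytes and neutrophils without vehicle 2, were chosen after seeing the data, and the neutrophil fit holds a sample of 8 cells. A further listed pathway gene was not analysed here.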

Additional observations from a re-analysis of the deposited data

How the results depend on the processing

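The number of members called in a class against tumor cells was 9 to 9 in endothelial cells, 9 to 10 in fibroblasts, 6 to 8 in lymphocytes, 8 to 10 in macrophages and 8 to 10 in microglia when each sample was left out, and between states 3 to 4 in AC-like, 2 to 4 in MES-like and 3 to 4 in NPC-like cells. In MES-like cells 2 of the 4 calls were left without TMM and also without vehicle 2. Between treatments it stayed 0 to 0, and under each alternative run. Calls over all genes between treatments moved more, from 0 to 19 per class to 0 to 741 with each matrix as 1 mouse, 0 to 491 with the replicate block, 0 to 455 without the filter on low counts and 0 to 286 by DESeq2, in these 4 highest in MES-like cells. In macrophages they were 2 to 52 as each sample was left out, lowest without vehicle 1 and 3 and highest without Xevinapant 3 and 4, and 0 with 1 marker more or fewer or mixed droplets kept. With each matrix as 1 mouse, 6 of 100 tests of the share of cells with a UMI reached p = 0.0286, the smallest that 4 against 4 allow by the exact permutation test, with a lowest adjusted p of 0.476. They were Ripk3 in macrophages, Mlkl in NPC-like, Casp8 in MES-like and Tnfrsf1b in tumor and OPC-like cells, all higher under Xevinapant, and Tnfrsf1b in lymphocytes, lower. This setting counts the nearly alike pairs of matrices as separate mice. It has no share over all genes beside it, so the count is not read as an excess. With the matrix number as a replicate block, 0 members were called between treatments. Same-numbered matrices correlated at −0.283 to 0.276 over 12601 genes, 2 of 4 over 0.1, and 1 matrix was most like its own number, so the numbers do not pair the samples. Of 766 comparisons of 67 single values with their alternatives, 747 kept their side of the threshold, 13 fell below it, 6 passed it and 0 changed direction. The 67 were 50 values between classes, 12 between states and 5 between treatments, so most treatment tests are not among them. Of 132 comparisons between states 12 fell below the threshold, against 1 of 545 between classes. Joined samples, 3 against 2, limit the treatment tests, and few cells limit lymphocytes, endothelial cells and fibroblasts.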
